A study of Mus musculus with 96 samples.

Results

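The 8 genes described here encode AP-1 (activator protein 1) factors, which are the Fos proteins (Fos, Fosb, Fosl1 and Fosl2), the Jun proteins (Jun, Junb and Jund) and Atf3. They were chosen by gene symbol from the 15895 genes of the table, and all 8 symbols were found. RNA was sequenced from primary embryonic fibroblasts of CF-1 mice at embryonic day 13, which had been held for 36 h in medium with 0.5% fetal calf serum (FCS) before FCS was raised to 20%. Starvation of this kind arrests many but not all cells in a resting state, so each library is an average over cells at different points of the cycle. Time course 1 held 64 libraries labelled −1 h to 38 h, and time course 2 held 32 libraries labelled −1 h to 27 h, counted from the addition of serum. The 12.5 h library of time course 1 could not be matched to a column of the table and was left out, so 63 libraries of that time course were used. Both time courses used the same cells, starvation and serum, with 1 library per time point. The starved group was made of the libraries labelled −1 h and 0 h of each time course.

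AP-1 factors carry a basic region that contacts DNA and a leucine zipper through which they pair. Jun proteins pair with themselves, with Fos proteins or with Atf3, whereas Fos proteins need a Jun partner. The pairs bind the TPA response element (TRE) or the cyclic AMP response element (CRE). Fos, Fosb, Jun, Junb and Atf3 are classed as immediate early genes, whose transcription starts within minutes of serum without new protein synthesis. Fosl1 is known to be transcribed later, in part by AP-1 itself. Serum response factor, which binds a CArG box, and CREB family factors, which bind the CRE, are the best studied activators of Fos.

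Stretches of 5 promoters are shown because these members held letters of a CArG box, a TATA box (TATAAA) or the CRE core (TGACG, on either strand) in the 500 bases ahead of the gene start. The sequences were read from the NCBIM37 (mm9) genome, 5′ to 3′ on the strand of the gene, with the matched letters in capitals.
Fos, chr12:86814491-86814580, plus strand: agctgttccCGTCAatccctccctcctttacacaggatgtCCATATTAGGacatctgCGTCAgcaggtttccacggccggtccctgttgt
Fosb, chr7:19895617-19895706, minus strand: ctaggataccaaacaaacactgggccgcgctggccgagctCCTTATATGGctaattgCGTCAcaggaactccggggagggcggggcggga
Junb, chr8:87502632-87502763, minus strand: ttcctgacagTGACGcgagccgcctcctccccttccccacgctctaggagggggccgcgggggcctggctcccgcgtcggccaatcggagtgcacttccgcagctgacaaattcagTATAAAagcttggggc
Jun, chr4:94719202-94719250, minus strand: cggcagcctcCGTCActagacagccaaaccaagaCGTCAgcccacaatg
Fosl1, chr19:5447567-5447655, plus strand: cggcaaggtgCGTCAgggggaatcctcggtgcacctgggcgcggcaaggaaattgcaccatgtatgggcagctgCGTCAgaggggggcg

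The CArG boxes of Fos and Fosb began 309 and 272 bases before the start, and each was followed 7 bases later by the CRE core. A CArG box was found in 2.7% of 22370 protein-coding promoters of this length, the CRE core in 27.6% and TATAAA in 24.6%. The CRE core search was added after the sequences had been seen, and it overlaps the full CRE (TGACGTCA, both strands, 2.21% of promoters), which no member held. The TRE was searched as TGANTCA, with any middle base (both strands, 12.1% of promoters). This pattern was found 462 bases before the start of Fos and in no other member. The matched letters were TGAATCA, and no member held the pattern with C or G as the middle base. Binding of AP-1 there was not tested. TATAAA, also searched on both strands, was found outside these stretches 33 bases before the start of Fos, and on the opposite strand 288 bases before that of Fosl1. No motif searched was found in the windows of Fosl2, Jund and Atf3, which says nothing of the factors that act there.

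In the gene models of NCBIM37, Fos lies at chr12:86814840-86818223 on the plus strand, Fosb at chr7:19888070-19895394 on the minus strand. Fosl1 lies at chr19:5447703-5455945 on the plus strand and Fosl2 at chr5:32438845-32460204 on the plus strand. Jun at chr4:94715725-94718913 (minus), Junb at chr8:87500811-87502617 (minus) and Jund at chr8:73221638-73224515 (plus) consist of 1 exon each. Atf3 lies at chr1:192994175-193007219 on the minus strand. Reads were counted over exons without regard to strand. Of the 1707 exon bases of Fosl1, 1162 (68.1%) also belong to Ccdc85b on the opposite strand, so reads of Fosl1 and Ccdc85b cannot be told apart there. Smaller opposite-strand overlaps touched Jun (232 bases, 7.28%, with BC042782) and Jund (543 bases, 18.9%, with Gm11175).

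Libraries held between 4352437 and 12551592 reads in the listed genes, with a median of 9374769, and the values are read counts scaled to a common library size. Fibroblast markers were present in every library, with the 10 listed genes summing to 188660 to 554400 (starved 398710 to 554400). Macrophage markers (7 of 8 genes in the table) summed to 499 to 4786, muscle markers to 420 to 2753, epithelial markers to 163 to 1132, endothelial markers to 49.0 to 290 and the 1 erythroid marker in the table to at most 6.24. The part of these cells in the results was not tested, and fewer cells of a type cannot be told apart from less RNA per cell. Among 9112 genes with a mean value over 100, the median absolute log2 step from −1 h to 0 h was 0.138 in time course 1 and 0.0877 in time course 2, close to the median of all neighbouring steps (0.115 and 0.108).

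The libraries labelled 0 h, described as taken just ahead of the serum, stood apart from the −1 h libraries in the AP-1 genes. The value of Fosb, a Fos protein with a strong activation domain, was 55.6 at −1 h and 17294 at 0 h in time course 1, and 31.5 and 9099 in time course 2. That of Fos, the founding member, was 914 and 24883 in time course 1 and 466 and 15149 in time course 2. In both time courses the library labelled 0 h therefore held the highest Fos value of the whole series of hours, and Fosb at 0 h was close to its highest value, reached at 1 h.

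Atf3, a stress-inducible factor that can act as a repressor, went from 63.1 to 1423 in time course 1 and from 54.4 to 765 in time course 2. Jun, a partner of Fos proteins, went from 1102 to 9812 and from 890 to 6778. Junb, a Jun protein with weaker activation of TRE sites, went from 1461 to 8579 and from 1189 to 5707. In Fos, Fosb, Atf3, Jun and Junb the 2 libraries labelled 0 h were both above the 2 labelled −1 h, without overlap. Jund, the Jun protein usually found in resting cells, was at 1106 and 749 at −1 h and at 3685 and 2104 at 0 h. Fosl1 was at 22.5 and 142 at −1 h and at 82.1 and 224 at 0 h, and Fosl2 at 1238 and 1949 against 1834 and 2250, so that the groups overlapped for Fosl1 and Fosl2.

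Tested across all genes with limma (2 libraries against 2), 6 of the 8 members were higher at 0 h than at −1 h, where 0.34% of all genes were called higher and 0.0503% lower. The spread in this test was pooled over the 62 libraries of hours sampled in both time courses (31 residual degrees of freedom). The SE and p-values therefore do not measure the spread of the −1 h and 0 h libraries alone. A gene was called at a Benjamini-Hochberg adjusted p under 0.05 with a log2 change above 1 in size. The log2 rise of Fosb, 8.19 ± 0.38 (SE; adjusted p = 5.77e-17), was the first of all 15895 genes by size. The rises of Fos (4.89 ± 0.57, adjusted p = 6.85e-07) and Atf3 (4.13 ± 0.30, adjusted p = 1.32e-11) ranked 4 and 6. Jun (3.04 ± 0.30), Junb (2.41 ± 0.23) and Jund (1.61 ± 0.33, adjusted p = 0.00811) were also called, whereas Fosl1 (1.24 ± 0.63) and Fosl2 (0.39 ± 0.23) were not. Other genes called higher at 0 h included the immediate early genes Egr1, Nr4a1, Ier2 and Btg2, named here after their values were seen. The cause of this difference was not tested. Whether the 0 h libraries were taken ahead of any change of medium or serum, as labelled, could not be tested here, so a change against a starved level that includes 0 h may not be a change from resting cells. The responses of the members below are given against −1 h and 0 h together and against −1 h alone. Changes of other genes are against −1 h and 0 h together unless −1 h alone is named.

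**Figure D1:**
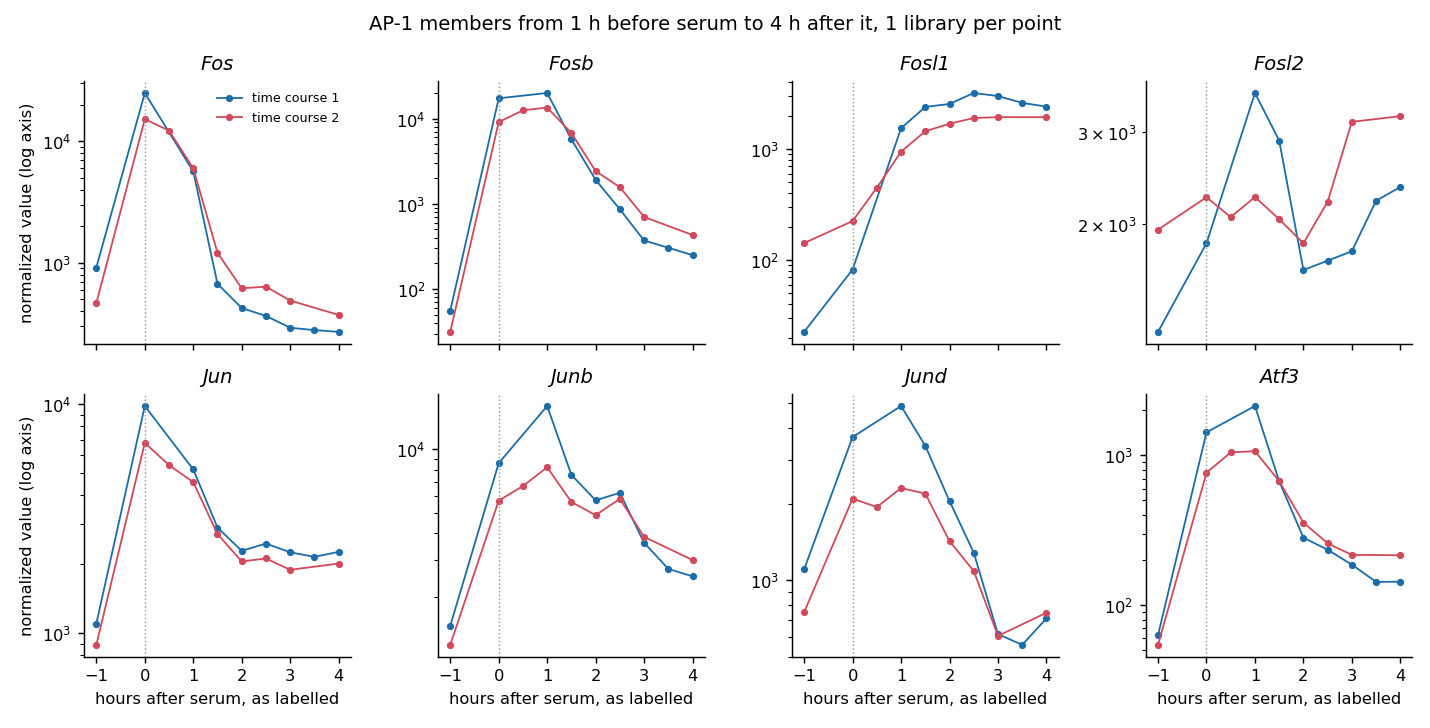
Normalized value (log axis) of each of the 8 members in every library from −1 h to 4 h of time course 1 and time course 2, 1 library per point. At 0 h Fos stood at 24883 and 15149 and Fosb at 17294 and 9099, above the −1 h libraries, whereas Fosl1 reached its highest values, 3193 and 1934, at 2.5 and 3 h.

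Fos and Fosb were short-lived after serum. In time course 1 the 1 h library held a Fos value of 5632, and the libraries of 1.5, 2, 3 and 4 h held 672, 424, 292 and 271. In time course 2 the 0.5 h library held 12203 and the 1 h library 5981, followed by 1207, 617, 489 and 373 at 1.5, 2, 3 and 4 h. From 1.5 h on in time course 1 and from 4 h on in time course 2, every Fos value was below that of the −1 h library of the same time course.

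Fos was called higher than at −1 h alone at 1 to 1.5 h (log2 change 1.81 ± 0.50, adjusted p = 0.00851). It was lower than at −1 h from 4 to 6 h (−1.46 ± 0.47) through 24 to 27 h (−2.91 ± 0.45, adjusted p = 5.40e-06). Against both starved libraries, the 1 to 1.5 h change was −0.64 ± 0.71 and not called, and Fos was lower in every later window, by −2.97 ± 0.65 at 2 to 3 h and −5.36 ± 0.62 at 24 to 27 h. From 4 to 6 h on, Fos was thus called lower against either starved level. By hour, Fos was called lower than −1 h at 22 of the 29 hours sampled in both time courses and higher at 1.

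The Fosb value in time course 1 was 19980 at 1 h, followed by 5717, 1912, 371 and 250 at 1.5, 2, 3 and 4 h. Time course 2 gave 12497 at 0.5 h and 13482 at 1 h, followed by 6772, 2421, 702 and 431 at 1.5, 2, 3 and 4 h. In both time courses the highest Fosb value was therefore that of the 1 h library, after the highest Fos value. It was 359 and 428 times the −1 h library of the same time course. Time course 1 has no 0.5 h library, so a peak ahead of 1 h could not be seen there. With −1 h alone as the starved level, Fosb was called higher at 1 to 1.5 h (log2 change 7.88 ± 0.33, adjusted p = 2.18e-18), at 2 to 3 h (4.66 ± 0.31) and at 4 to 6 h (2.29 ± 0.31), and in no later window. Against both starved libraries it was higher at 1 to 1.5 h (3.78 ± 1.03, adjusted p = 0.00618) and lower from 7 to 10 h (−3.15 ± 0.89) on. That fall was not called against −1 h alone, where the change at 24 to 27 h was −0.17 ± 0.30.

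Fosl1 (Fra-1), which lacks the activation domains of Fos and marks growing and invasive cells, rose later and stayed high. Its value in time course 1 was 1538, 2389, 2543 and 3193 at 1, 1.5, 2 and 2.5 h, and 2995 and 2408 at 3 and 4 h. Time course 2 gave 447 at 0.5 h, then 946, 1444, 1688 and 1899 at 1, 1.5, 2 and 2.5 h, and 1934 and 1933 at 3 and 4 h. Every library from 1 h to 26 h of either time course was above the 4 starved libraries.

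Fosl1 was the 1 member called higher in all 8 windows, and at all 29 shared hours, against either starved level. The call at 27 h rests on time course 1 (1135), since the 27 h value of time course 2 (220) was below its 0 h library (224). Its log2 change was 4.70 ± 0.43 (adjusted p = 3.47e-11) at 2 to 3 h and 3.11 ± 0.40 (adjusted p = 8.62e-08) at 24 to 27 h against both starved libraries. The same changes were 5.31 ± 0.52 and 3.73 ± 0.50 against −1 h alone. Fosl1 values from 15 to 18 h ranged from 1177 to 1420 (median 1251, 7 libraries) in time course 1, and were 769 to 830 in the 4 libraries of time course 2. The normalized values of Ccdc85b, with which Fosl1 shares most of its exon bases, were 205 and 230 in the starved libraries of time course 1 and 284 and 387 in those of time course 2. The ratio of the Ccdc85b value to the Fosl1 value fell from 9.10 at −1 h to 1.48 at 1 h in time course 1 and from 2.00 to 1.38 in time course 2. Its median over the libraries of time course 1 from 1 h on was 1.15, with 1.61 to 2.38 from 34 to 38 h, so the rise of Fosl1 and that of Ccdc85b could not be told apart.

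Fosl2 (Fra-2), the Fos protein known for steady expression in connective tissue cells, moved least. Its highest value in time course 1 was 3574 at 1 h, 2.89 times the −1 h library, with a lower one of 1629 at 2 h and 3360 as the highest of the 4 to 6 h window. In time course 2 its values lay between 1835 and 2253 from 0.5 to 2.5 h and reached 3144 at 3 h and 3225 at 4 h, 1.65 times the −1 h library. The largest window change was 0.70 ± 0.15 (adjusted p = 0.00027) at 4 to 6 h against both starved libraries and 0.89 ± 0.19 against −1 h alone. With the size limit of log2 1, Fosl2 was called in no window and at no hour.

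Jun in time course 1 stood at 5187 at 1 h and at 2892, 2288, 2255 and 2266 at 1.5, 2, 3 and 4 h. Its values in time course 2 were 5413 at 0.5 h and 4565 at 1 h, followed by 2712, 2058, 1892 and 2015 at 1.5, 2, 3 and 4 h. Jun thus fell from 1.5 to 2 h and was about level from 2 to 4 h, well below the libraries labelled 0 h and above those at −1 h. Jun was higher than at −1 h alone at 1 to 1.5 h (log2 change 1.90 ± 0.26, adjusted p = 1.16e-06), 2 to 3 h (1.13 ± 0.25) and 4 to 6 h (1.01 ± 0.25). Against both starved libraries no rise was called, and Jun was lower from 15 to 18 h (−1.13 ± 0.37) to 24 to 27 h (−1.36 ± 0.37, adjusted p = 0.00212). In those windows the change against −1 h alone had the opposite sign (0.39 ± 0.24 and 0.16 ± 0.24 in the first and the last) and was not called.

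Junb reached the highest levels of the Jun group. Its value in time course 1 was 15977 at 1 h, then 7556, 5725 and 6213 at 1.5, 2 and 2.5 h, and 3611 and 2504 at 3 and 4 h. In time course 2 it was 6689 at 0.5 h and 8206 at 1 h, then 5621, 4873 and 5820 at 1.5, 2 and 2.5 h, and 3848 and 2991 at 3 and 4 h. In both time courses the highest Junb value was at 1 h, which is the first library after serum in time course 1. The 2.5 h library stood above the 2 h library in both, a step for which each time course has 1 library per hour. Junb was called higher at 1 to 1.5 h against both starved libraries (log2 change 1.51 ± 0.33, adjusted p = 0.000779) and against −1 h alone (2.71 ± 0.20), and at 2 to 3 h against −1 h alone (1.90 ± 0.19). Its fall from 7 to 10 h on (−1.53 ± 0.29) was called against both starved libraries. With −1 h alone the changes from 7 to 10 h on lay between −0.56 and −0.32.

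Jund in time course 1 was at 4887 at 1 h and at 3404, 2057, 613 and 708 at 1.5, 2, 3 and 4 h. Time course 2 gave 1949 at 0.5 h and 2316 at 1 h, followed by 2203, 1429, 604 and 745 at 1.5, 2, 3 and 4 h. Jund was therefore above the −1 h library up to 2 h in both time courses and below it at 3 h. Jund was higher than at −1 h alone at 1 to 1.5 h (log2 change 1.74 ± 0.28, adjusted p = 1.97e-05) and called in no other window. Measured against both starved libraries it was lower from 11 to 14 h (−1.07 ± 0.26) on.

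The Atf3 value in time course 1 was 2134 at 1 h, followed by 671, 282, 186 and 143 at 1.5, 2, 3 and 4 h. Time course 2 gave 1047 at 0.5 h and 1066 at 1 h, followed by 672, 356, 217 and 215 at 1.5, 2, 3 and 4 h. Atf3 followed Fosb in its order of hours, with the highest library at 1 h in both time courses. It was called higher at 1 to 1.5 h against both starved libraries (log2 change 2.01 ± 0.54, adjusted p = 0.00577) and against −1 h alone (4.08 ± 0.26, adjusted p = 1.28e-13), and against −1 h alone also at 2 to 3 h (2.08 ± 0.24) and 4 to 6 h (1.20 ± 0.24). The fall from 7 to 10 h on against both starved libraries (−2.31 ± 0.47 at 24 to 27 h) became −0.25 ± 0.24 against −1 h alone.

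**Figure D2:**
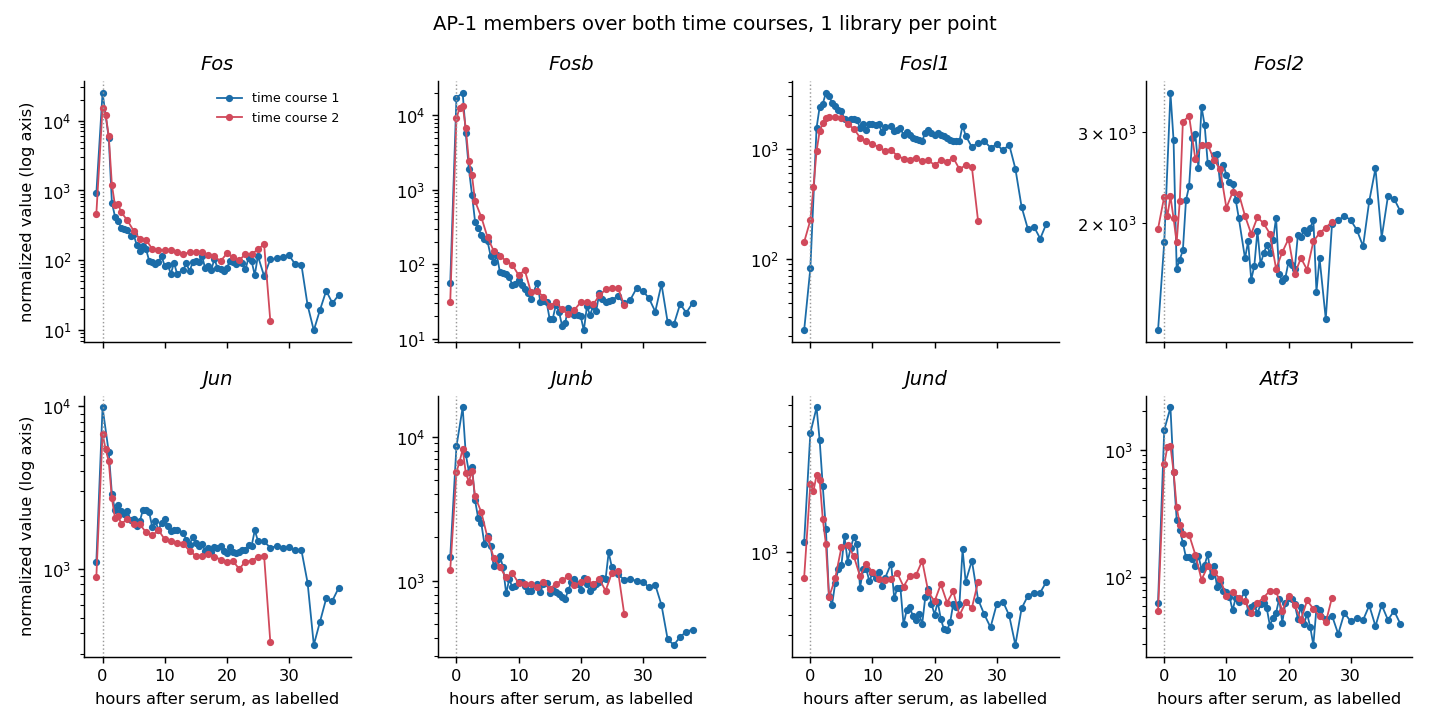
Normalized value (log axis) of the 8 members in all 95 libraries against hours after serum, time course 1 to 38 h and time course 2 to 27 h. Fosl1 stayed above its starved libraries up to 26 h, and Fos, Fosl1, Jun and Junb dropped in the last library of time course 2 and after 32 h in time course 1.

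Counted over windows, against both starved libraries 4 members (Fosb, Fosl1, Junb and Atf3) were higher at 1 to 1.5 h, where 3.10% of all genes were called higher and 4.51% lower. In the 2 to 3 h and 4 to 6 h windows Fosl1 was higher and Fos lower, with 6.66% and 18% and then 7.44% and 18.7% of all genes called higher and lower. From 7 to 10 h the counts were 1 member higher and 4 lower (6.97% and 16.2% of all genes), then 1 and 5 at 11 to 14 h (6.73% and 15.8%). In the 15 to 18 h, 19 to 23 h and 24 to 27 h windows 1 member was higher and 6 were lower, beside 6.64% and 16.2%, 6.76% and 17.9%, and 6.13% and 18.5% of all genes.

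Against −1 h alone, 7 members (all but Fosl2) were higher at 1 to 1.5 h, where 3.13% of all genes were called higher and 4.76% lower. At 2 to 3 h 5 members were higher (6.41% of all genes) and none lower (17.1%), with Fosb, Fosl1, Jun, Junb and Atf3 called. At 4 to 6 h Fosb, Fosl1, Jun and Atf3 were higher (6.95%) and Fos lower (17.3%). In each of the 5 later windows Fosl1 was the 1 member called higher and Fos the 1 called lower. The share of all genes called higher in these windows was 6.56%, 6.27%, 5.98%, 5.93% and 5.5%, and the share called lower 14.9%, 14.3%, 14.4%, 16.2% and 17%. Taken over the 64 pairs of a member and a window, 11 were higher and 29 lower against both starved libraries, and 21 higher and 6 lower against −1 h alone. The F test over hours called 6 members against both (46.3% of all genes; not Fosl2 and Jun) and 7 against −1 h alone (43.6% of all genes; not Fosl2). Nothing in the labels says whether the time courses came from separate cultures, so these p-values measure only the spread between the libraries.

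**Figure D3:**
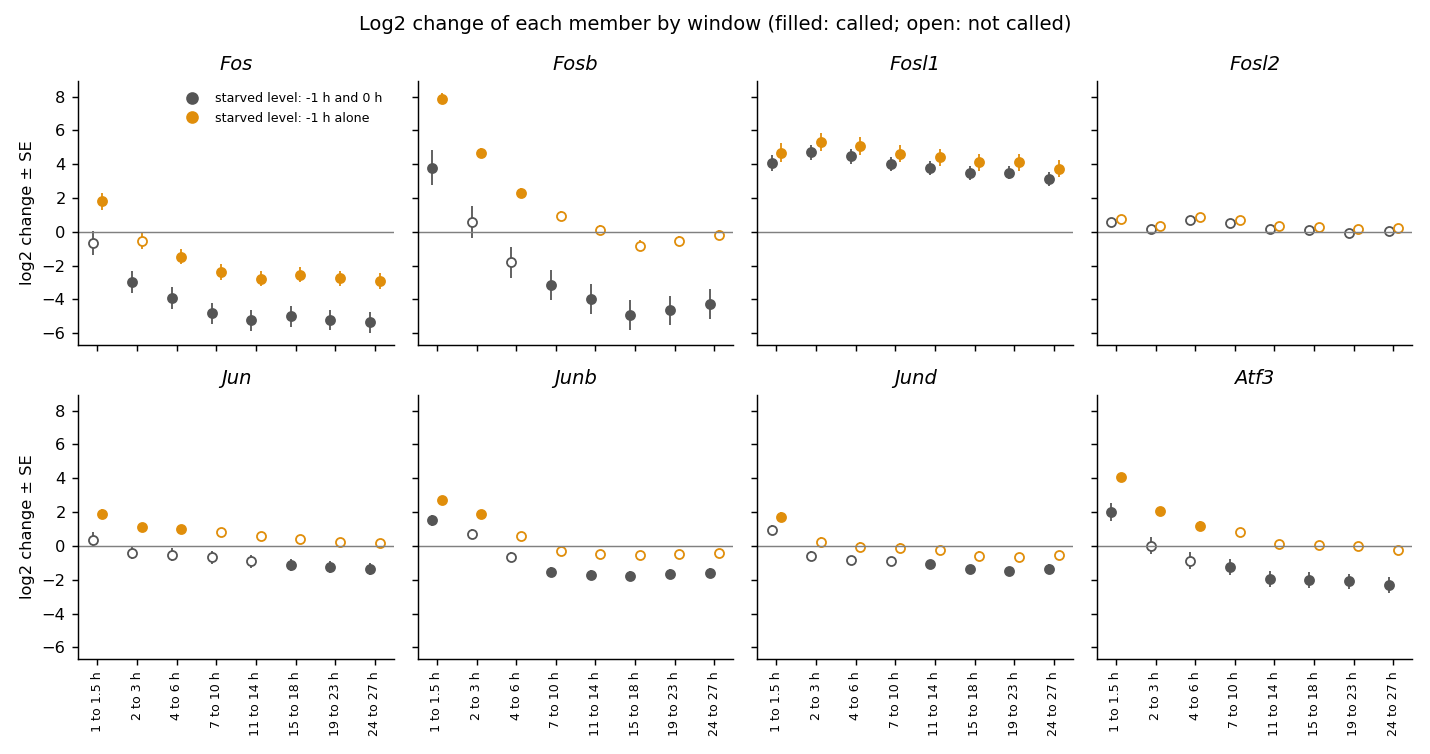
Log2 change ± SE of each member in 8 windows from the limma fit, against the −1 h and 0 h libraries together (dark) and against −1 h alone (orange), with called changes as filled points. Fosl1 was called higher in every window against either starved level, Fosl2 in none, and the late falls of Fosb, Jun, Junb, Jund and Atf3 were called only against the level that includes 0 h.

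The response was also compared between the time courses, with the libraries of a window standing in for replicates and the 0.5 h library of time course 2 placed in the first window. These libraries are neighbouring hours of the same time course. The SE and p-values therefore measure the spread between libraries within a time course, and not the spread between repeated time courses. Of the 64 pairs, 10 differed, of which 8 belonged to Fosl1. Its log2 response was larger in time course 1 than in time course 2 by 3.20 ± 0.44 at 1 to 1.5 h (adjusted p = 9.34e-07, with 1.99% of all genes differing), by 2.20 ± 0.40 at 4 to 6 h (adjusted p = 5.12e-05, 15.5% of all genes) and by 3.29 ± 0.39 at 24 to 27 h (adjusted p = 1.31e-09, 26.7% of all genes). At 2 to 3 h and from 7 to 23 h the difference lay between 2.43 and 2.79, in windows where 8.8%, 20.2%, 22.1%, 23.7% and 24.2% of all genes differed. The level after serum was higher in time course 1 (2543 to 3193 against 1688 to 1934 at 2 to 3 h) and the starved level lower (22.5 and 82.1 against 142 and 224). The highest value was 142 times the −1 h library in time course 1 and 13.6 times in time course 2.

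Against −1 h alone the Fosl1 difference was 2.78 to 3.87 and called in every window, but the starved level is then 1 library per time course, with no spread of its own, and the Fosl1 value of 22.5 in time course 1 rests on 15 reads. The share of all genes that differed was then 1.03%, 3.34%, 7.92%, 10.5%, 11.5%, 13.6%, 12.9% and 13.1% in the 8 windows. The difference at 24 to 27 h was also called without the 27 h library of time course 2 (2.89). Without the −1 h library of time course 1 it was 1.29 to 2.38, and the number of pairs that differed over all members rose to 51. The number was 16 without the 0 h library of time course 1 and 45 without that of time course 2. Each of the other 2 called pairs was lost on leaving out either of 2 starved libraries. Fosl2 differed by 1.08 ± 0.24 at 1 to 1.5 h (adjusted p = 0.00375), but by 0.79 without the −1 h library of time course 1 and 0.97 without the 0 h library of time course 2, neither called. Jund differed by −1.35 ± 0.42 at 15 to 18 h (adjusted p = 0.0126), but by −0.48 without the 0 h library of time course 1, −0.61 without the −1 h library of time course 2 and −1.23 (adjusted p = 0.0612) against −1 h alone, none of which was called.

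To compare levels between genes, each value was divided by the length of the longest protein-coding transcript in kb, and the share of each member in the sum of its group was taken. Per kb, Fos made up 64.4% of the Fos group at −1 h in time course 1 and 34.2% in time course 2, where Fosl2 led with 51.6%. In the libraries labelled 0 h Fos made up 70.4% and 71.0% and Fosb 27.5% and 23.9%. At 1 h Fosb led with 56.0% and 48.8%. At 2 to 3 h Fosl1 led with 69.8% ± 8.6 (SD, 3 libraries) in time course 1 and 49.6% ± 5.1 in time course 2. Fosl1 also led in every later window, except at 24 to 27 h of time course 2, where Fosl2 led. Without division by length Fosl2 led in all these windows but 2 to 3 h of time course 1. The share of Fosl1 may include reads of Ccdc85b, which shares most of its exon bases. At 15 to 18 h Fosl1 held 67.2% ± 2.5 (7 libraries) and 54.6% ± 2.0 (4 libraries). Fosl2 came next at 28.3% ± 2.4 and 37.6% ± 1.8. Fos and Fosb together made up only a small share of the group by then (Fos 3.97% and 6.91%, Fosb 0.50% and 0.81%).

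In the Jun group Junb led in most windows. Junb per kb made up 52.6% and 55.0% at −1 h, 70.4% ± 3.0 and 72.8% ± 2.6 at 2 to 3 h, and 43.1% ± 1.0 and 45.4% ± 1.0 at 15 to 18 h. Jun made up 22.5% and 23.3% at −1 h and 40.7% ± 1.0 and 31.8% ± 2.1 at 15 to 18 h, when Jund held 16.3% ± 1.2 and 22.7% ± 1.3. In time course 1 Jun had the higher mean share between these hours, with 41.8% ± 2.9 against 38.3% ± 2.0 for Junb at 7 to 10 h and 40.4% ± 2.6 against 39.5% ± 2.6 at 11 to 14 h, although the ranges of both overlapped. Junb led in time course 2 in these windows (42.9% ± 1.3 and 42.7% ± 1.4). The ranges of Jun and Junb at 15 to 18 h overlapped in time course 1 (39.6% to 42.5% and 42.1% to 44.8%) and not in time course 2 (29.1% to 34.2% and 44.3% to 46.4%). The ratio of the summed Fos group to the summed Jun group, per kb, was 0.44 and 0.54 at −1 h, 1.84 and 1.68 at 0 h, and 0.78 and 1.09 at 1 h.

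**Figure D4:**
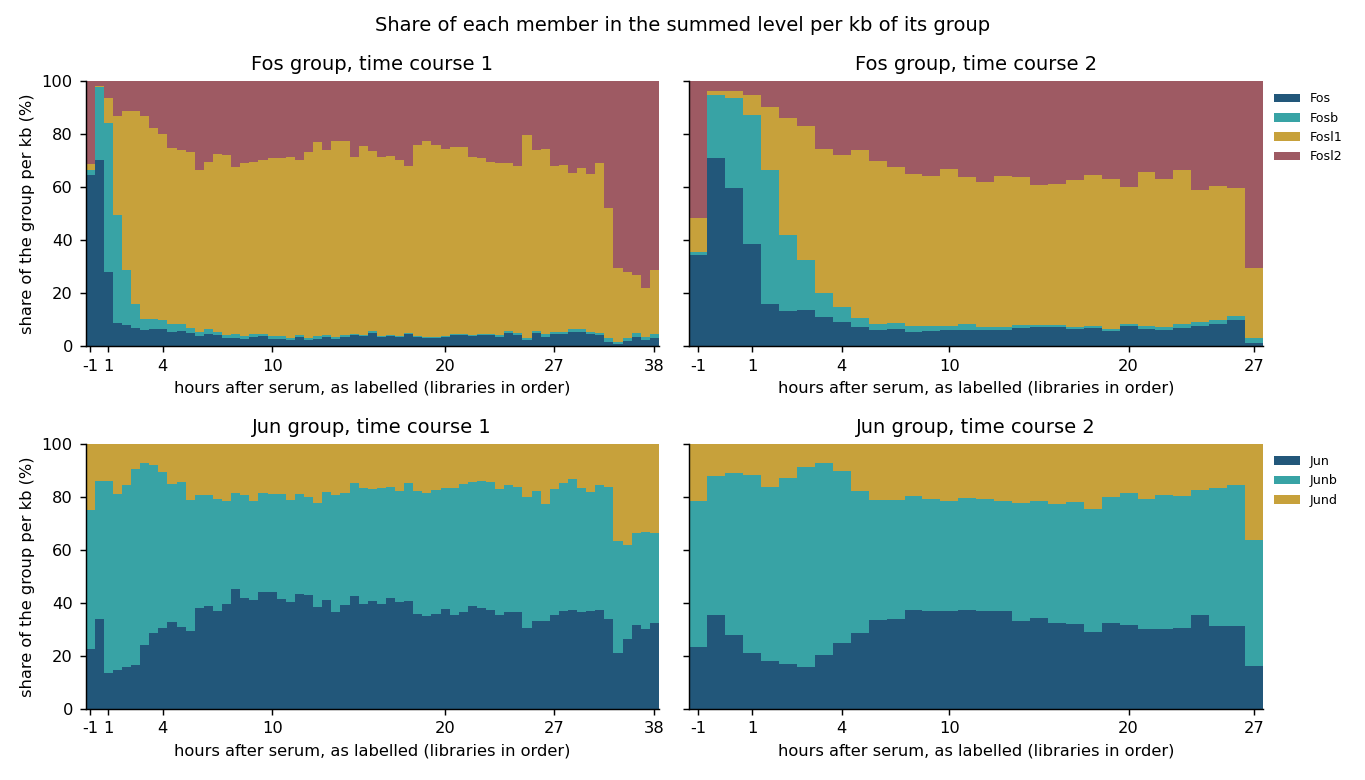
Share (%) of each member in the summed level per kb of the Fos group (Fos, Fosb, Fosl1, Fosl2) and of the Jun group (Jun, Junb, Jund), 1 column per library in order of the hours. Fos led at 0 h (70.4% and 71.0%), Fosb at 1 h (56.0% and 48.8%) and Fosl1 at 2 to 3 h. Fosl2 had the highest mean share of the Fos group at 24 to 27 h of time course 2. The share of Fosl1 may include reads of Ccdc85b. Junb was the largest part of the Jun group at 2 to 3 h (70.4% and 72.8%).

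Late libraries of both time courses showed a drop that was largest in 4 members, described here without a test. In time course 2, Fos was at 123, 143 and 171 at 24, 25 and 26 h and at 13.7 at 27 h, the last from 14 reads (95% Poisson interval of the value 7.49 to 23.0, counting error only). Fosl1 went from 679 at 26 h to 220 at 27 h, Jun from 1201 to 355 and Junb from 1170 to 589. Fosb, at low values, went from 48.2 to 28.4. Fosl2 (1958 and 2012) stayed close and Jund (539 and 716) and Atf3 (44.4 and 69.5) were higher at 27 h. Among the 9112 genes the median absolute log2 change from 26 h to 27 h was 0.131, and 0.878% of genes were below −1, beside −3.54 for Fos, −1.75 for Jun, −1.62 for Fosl1, −0.99 for Junb and −0.74 for Fosb.

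In time course 1 the same 4 members dropped after 32 h. Fos was at 87.3 at 32 h, 22.9 at 33 h and 9.97 at 34 h (12 reads, 95% Poisson interval 5.15 to 17.4), and between 19.6 and 36.8 from 35 to 38 h. Fosl1 went from 1087 at 32 h to 658 at 33 h, 297 at 34 h and 153 to 209 from 35 to 38 h. Jun went from 1304 at 32 h to 340 at 34 h and 761 at 38 h, and Junb from 936 to 391 and 458. From 34 h on all 5 libraries of Fos, Fosl1, Jun and Junb were below all 5 from 25 to 29 h, whereas Jund and Atf3 overlapped between these hours.

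The log2 change from 25 to 29 h to 34 to 38 h was −2.46 for Fosl1, −2.06 for Fos, −1.39 for Junb, −1.34 for Jun and −0.68 for Fosb, beside 0.29 for Fosl2. The median over all 9112 genes was 0.04, and 1.92% of them were below −1. With Fosl1 down, Fosl2 led the Fos group per kb at 34 h (70.4%) and 38 h (71.2%) of time course 1 and at 27 h of time course 2 (70.6%). The hours of the drop differ between the time courses, and no library of time course 2 lies beyond 27 h. Without its 27 h library, the 24 to 27 h change of Jun against both starved libraries was −1.12 ± 0.36 and that of Fosl1 3.41 ± 0.38, both called as before. Time course 1 also had its largest step between neighbouring libraries at 24 to 24.5 h (median absolute log2 step 0.487), with Fosl1 at 1172 and 1614 and Junb at 1024 and 1575.

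**Figure D5:**
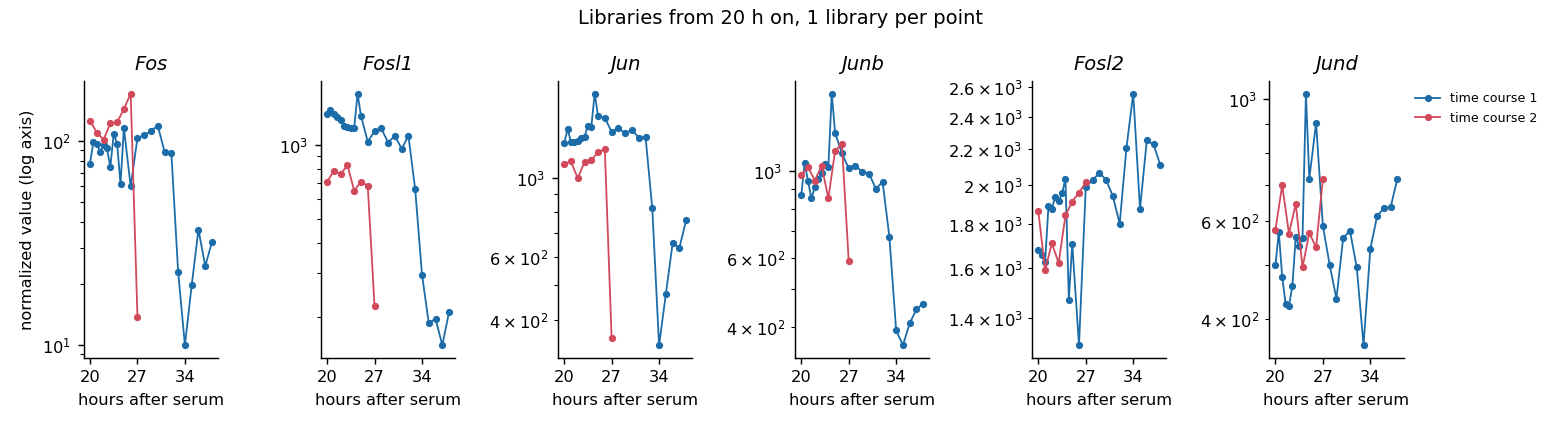
Normalized value (log axis) of 6 members in the libraries from 20 h on, 1 library per point. Fos, Fosl1, Jun and Junb dropped at 27 h in time course 2 (Fos to 13.7, Jun to 355) and from 33 h in time course 1 (Fos to 9.97 at 34 h). Jund was at 358 at 33 h of time course 1 and back at 535 at 34 h, and Fosl2 showed no such drop.

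The genes most like each member were those with the highest Pearson r of log2(value + 1) over libraries, taking the lower of the 63-library and 32-library values, among 12803 genes with a mean value of at least 10. The libraries are neighbouring hours of 1 response, so these values are descriptions. For Fos they were Zfp36 (0.95), Egr1 (0.94) and Nfkbia (0.90), and for Fosb they were Atf3 (0.95), Btg2 (0.94) and Zfp36 (0.93). Jun was most like Ier2 (0.94), Nfkbiz (0.92) and Egr1 (0.91), and Junb most like Btg2 (0.96), Mcl1 (0.94) and Cxcl1 (0.94). Jund was most like Atf3 (0.87), Fosb (0.86) and Klf4 (0.84), and Atf3 most like Fosb, Btg2 (0.93) and Nfkbia (0.92). The genes most like Fosl1 were Ccdc85b (0.97), with which it shares reads, Yrdc (0.92) and Phlda1 (0.90), and those most like Fosl2 were Nr4a2 (0.78), Gfpt1 (0.77) and Osbp (0.76). Among the members, Fos, Fosb, Jun, Junb, Jund and Atf3 had values of 0.69 to 0.95 with each other, whereas Fosl1 had −0.07 to 0.24 and Fosl2 0.13 to 0.35 with the other members.

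The other bZIP genes, with which AP-1 proteins can pair or compete, were called in at least 1 window about as often as all genes. Of the 37 of 39 in the table, 5 were higher and 12 lower in at least 1 window, where 14.7% and 36.1% of all genes were. At 1 to 1.5 h 4 were higher and 2 lower, where 3.10% and 4.51% of all genes were. Maff (log2 change 2.41 ± 0.29) and Mafk (2.03 ± 0.22), small Maf proteins without an activation domain, and Bach1 (1.44 ± 0.26), a repressor that pairs with them, rose at 1 to 1.5 h. Dbp (−3.63 ± 0.38 at 4 to 6 h) and Hlf (−2.79 ± 0.49 at 11 to 14 h), clock output factors, fell. Against −1 h alone Cebpb took the place of Bach1 (1.67 ± 0.28 at 2 to 3 h), and Maff, Mafk and Nfil3 were among the genes called higher at 0 h. In at least 1 window 6 of the 37 were higher and 11 lower against −1 h alone (13.2% and 33.8% of all genes).

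Upstream of AP-1, of 35 genes of the MAP kinase modules that phosphorylate Fos and Jun, 4 were higher and 6 lower in at least 1 window, against either starved level. The shares of all genes were 14.7% and 36.1% against both starved libraries and 13.2% and 33.8% against −1 h alone. None of the 35 was called at 0 h. Map2k3, a kinase of p38, rose by 2.41 ± 0.18 and Mapkapk3, a kinase downstream of p38, by 1.36 ± 0.11, both at 2 to 3 h, and Mapk13, a p38 isoform, by 1.58 ± 0.39 at 15 to 18 h. Mapk10, a Jun N-terminal kinase, had a change of −2.05 ± 0.36 at 19 to 23 h, Rps6ka5, a histone kinase, −1.46 ± 0.33 at 7 to 10 h and Map2k6 −1.08 ± 0.37 at 2 to 3 h, all called lower.

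Of the 20 transcription factors and cofactors of the Fos and Jun promoters in the table (of 22 listed), 3 were higher and 4 lower in at least 1 window (14.7% and 36.1% of all genes). None was called at 1 to 1.5 h (3.10% and 4.51% of all genes), and against −1 h alone 1 was, Srf (1.10 ± 0.20), named after its value was seen. Srf, the factor of the CArG box, rose by 1.30 ± 0.16 at 15 to 18 h, and its coactivators Mkl1 (1.56 ± 0.10) and Myocd (2.06 ± 0.40) rose at 24 to 27 h. Mef2c (−2.32 ± 0.24 at 11 to 14 h) and Mef2b (−1.75 ± 0.52 at 24 to 27 h) fell. The counts in at least 1 window were 4 higher and 2 lower against −1 h alone (13.2% and 33.8% of all genes).

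Of 29 genes in the table (of 30 listed) that act on decay of Fos and Jun transcripts or proteins, 1 was higher and 4 lower in at least 1 window (14.7% and 36.1% of all genes). Zfp36 and Zfp36l1, which bind AU-rich elements of short-lived transcripts, were lower at 24 to 27 h against both starved libraries (−2.60 ± 0.41 and −2.42 ± 0.16). With −1 h alone they were higher at 1 to 1.5 h (2.89 ± 0.27 and 1.25 ± 0.20), and Zfp36, like Fos, was among the genes called higher at 0 h. The fall of Zfp36l1 at 24 to 27 h was also called against −1 h alone (−2.08 ± 0.18). Det1, a ubiquitin ligase adaptor for Jun, fell by 1.91 on the log2 scale at 2 to 3 h (SE 0.17).

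Genes listed as AP-1 targets were called higher more than any of the lists above. The list was chosen with earlier results of these data known, so its counts are a description and not a test of AP-1 activity. Of 38 in the table (of 40 listed), 20 were higher and none lower at 1 to 1.5 h, where 3.10% and 4.51% of all genes were, and 25 higher and none lower at 2 to 3 h, where 6.66% and 18% were. The median log2 change of the list was 1.73 at 2 to 3 h and 0.57 at 24 to 27 h, beside −0.32 and −0.17 over all genes. In at least 1 window 32 were higher and 6 lower, where 14.7% and 36.1% of all genes were. The counts against −1 h alone were 31 and 5 (13.2% and 33.8% of all genes), and 3 (Cxcl1, Ereg and Ptgs2) were called higher at 0 h. The largest rises were those of Serpinb2, a plasminogen activator inhibitor (9.18 ± 0.28 at 7 to 10 h), Mmp10, a matrix metalloproteinase (7.30 ± 0.38 at 7 to 10 h), and Areg, an EGF receptor ligand (7.30 ± 0.58 at 4 to 6 h). Figf, a vascular growth factor (−4.08 ± 0.26 at 11 to 14 h), Cxcl1, a chemokine (−2.70 ± 0.48 at 11 to 14 h), and Plat, tissue plasminogen activator (−2.67 ± 0.18 at 24 to 27 h), fell. Cxcl1 was itself higher at 0 h (log2 change 3.62), and against −1 h alone the largest falls were those of Figf, Plat and Bcl3 (−2.21 ± 0.34 at 15 to 18 h).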

How the data were processed

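PolyA RNA of 96 libraries was prepared with a stranded kit and read as 50-base single-end reads, 12 libraries per lane. Per the labels and the methods of the study, the authors used CASAVA, aligned to mm9 with STAR and counted reads over exons with HOMER, without strand. The deposited values are a signal, read counts scaled to a common library size (95.5% of low values, the median library, were whole multiples of 1 read within 0.1 reads). One column matched no label and was not used (1 in all), and the 12.5 h library of time course 1 was matched to no column, so 95 were used.

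Values were tested with limma 3.58.1 (R 4.3.3) on log2(value + 1) over all 15895 genes, with no filter, and 1 coefficient per hour from the 62 libraries of hours sampled in both time courses. Calls needed an adjusted p under 0.05 (Benjamini-Hochberg) and a log2 change above 1 in size. A separate fit by window compared the time courses (adjusted p alone). Lengths and overlaps came from the GENCODE annotation of NCBIM37. The deviations of time course 1 from the mean of both time courses at an hour correlated between hours (median 0.424 over 465 pairs of hours, lowest −0.20, 403 over 0.1). Part of the difference between the time courses thus lasted across hours. The main fit had no term for the time course. The members, lists and named-gene rule (all members, the 3 largest called rises and falls per list, the 3 genes most like each member) were chosen with earlier results of these data known. Alternatives added after the data were seen are those with −1 h alone (other than the plain fit), those that leave out a starved or 27 h library from the time course comparison, and lengths of all joined exons. Scripts were tested on simulated data. Values of some listed genes are not reported here.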

Additional observations from a re-analysis of the deposited data

Results flagged for a closer look

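Within windows of 4 to 10 libraries, 4 of 72 groups of a member and a window held a library apart from the others by Dixon's ratio, and chance flags about 1 in 20 groups. All were in the 24 to 27 h window, taken over the 8 libraries of shared hours of both time courses together. They were the 27 h library of time course 2 for Fos (13.7), Fosl1 (220) and Jun (355), and the 26 h library of time course 1 for Fosl2 (1303). The 27 h library of time course 2 was left out in turn in the values given beside the late libraries.

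The response of Fosl1 was larger in time course 1 than in time course 2 in every window, by 3.20, 2.68, 2.20, 2.43, 2.70, 2.68, 2.79 and 3.29 on the log2 scale from 1 to 1.5 h to 24 to 27 h, by the test of the difference itself. Using shared hours only, the 1 to 1.5 h difference was 2.73 ± 0.46. The reads of Fosl1 and Ccdc85b cannot be told apart over most of the exon bases of Fosl1. The response of Fosl2 differed by 1.08 at 1 to 1.5 h and that of Jund by −1.35 at 15 to 18 h. The cause of these differences was not tested.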

How the results depend on the processing

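The choice of starved level and the leaving out of a time course moved the most results. With −1 h alone, the pairs of a member and a window called higher went from 11 to 21 and those called lower from 29 to 6. Of the pairs called against either level, the direction turned in 13, for Fos at 1 to 1.5 h (1.81), Jun at 2 to 3 h (1.13), 4 to 6 h (1.01), 15 to 18 h (0.39), 19 to 23 h (0.26) and 24 to 27 h (0.16), Fosb at 4 to 6 h (2.29), 7 to 10 h (0.94) and 11 to 14 h (0.097), and Atf3 at 4 to 6 h (1.20), 7 to 10 h (0.80), 11 to 14 h (0.13) and 15 to 18 h (0.063). With 0 h alone (8 higher, 43 lower) it turned for Fosb at 1 to 1.5 h (−0.31) and 2 to 3 h (−3.53), Jun at 1 to 1.5 h (−1.14) and Atf3 at 1 to 1.5 h (−0.052) and 2 to 3 h (−2.06), and with edgeR on recovered reads (9 higher, 37 lower) for Fosb at 2 to 3 h (−2.32). The pseudocounts 0.5 and 10, the filter at a mean of 10 and the trend and robust options changed none of the 64 calls, and the median ratio scaling changed 1.

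The replicate block, with the time course as the block, gave 11 higher, 29 lower and 6 members by the F test, and changed no call of a pair. Leaving out 1 library or 1 time course gave 3 to 14 pairs higher, 0 to 37 lower and 0 to 7 members by the F test. The lowest counts came without time course 1 (3 higher, 0 lower, 0 members; 37 calls of pairs lost) and without time course 2 (7, 0 and 0; 33 lost), with 1 residual degree of freedom. Such fits with −1 h alone have none and were not run. Against −1 h alone, leaving out 1 library gave 20 to 23 higher, 5 to 7 lower and 7 to 8 members. The pairs that differed between time courses numbered 10 to 51 (51, 16 and 45 without the −1 h and 0 h libraries of time course 1 and the 0 h library of time course 2). The Jun difference ranged from −1.71 without the −1 h library of time course 1 to 1.44 without its 0 h library at 7 to 10 h, and from −1.75 to 1.41 at 19 to 23 h. The cause of these changes was not tested.

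Not dividing by length, the leading member of a group was the same in 15 of 36 windows. The MAP kinase genes called lower were 3 with pseudocount 10 in place of 6, the promoter factors called lower 2 and the decay genes called higher 2 with −1 h alone in place of 4 and 1, and with linear folds 10 of the 24 most alike genes were shared. The lowest Fos values rest on 10 to 19 reads, which limits their precision.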
